A study of Drosophila melanogaster with 12 samples.

Results

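The genes of carbohydrate metabolism described here are 34 enzymes and carriers, chosen by their FlyBase symbol from the 17737 gene identifiers of a count table of *Drosophila* heads. They fall into 7 branches: 13 genes of glycolysis, 4 of gluconeogenesis, 4 of trehalose metabolism, 5 of glycogen metabolism, 5 of the pentose phosphate pathway, 2 of the glycerol phosphate shuttle, and the glucose carrier Glut1. Of the 34, 32 matched the table by symbol, and GlyS and GlyP matched through older symbols (Glys and Glyp in the current naming). Reads were counted for each gene in whole heads, in 12 libraries that form 4 groups of 3.

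The groups differ in the driver and in the stock it was crossed to. Neuron controls were elav-GAL4 x AttP flies (BDSC 36304), and the neuron-specific knockdown was elav-GAL4 crossed to a *PIG-A* RNAi line (BDSC 62696). Glia controls and the glia-specific knockdown used the same pair of stocks with repo-GAL4. elav-GAL4 drives expression in neurons and repo-GAL4 in glia, and 1 RNAi line was used with both. Each library pooled 5 to 10 flies of 3 to 5 days by the labels, whereas the methods give 10 heads of 3-day-old males. Flies of all groups were kept at 25 °C in a 12 h light and dark cycle, with no CO2 for the last 48 h. The labels do not say whether the replicates of a group came from separate crosses, so the p-values measure the spread between these libraries. *PIG-A* encodes the catalytic subunit of the enzyme that starts the synthesis of glycosylphosphatidylinositol anchors. Its partial loss by RNAi in either cell type is the comparison that these libraries were built on.

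Glycolysis splits glucose into pyruvate in the cytosol and yields ATP and NADH. In insects the main sugar of the haemolymph is trehalose, which the fat body makes and other tissues cleave to glucose, while glycogen is the intracellular store of muscle and fat body. The pentose phosphate pathway draws glucose 6-phosphate off before the committed step of glycolysis and gives NADPH and ribose 5-phosphate. In the fly brain, glia are known to carry out much of the glycolysis and to pass lactate and alanine to neurons.

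The libraries held 20694850 to 31893782 counts. *PIG-A* (FBgn0034270) had 3.75, 5.19 and 3.62 CPM (counts per 1000000, TMM-scaled) in the neuron controls against 2.98, 2.54 and 3.06 in the neuron-specific knockdown, a log2 fold change of −0.55 ± 0.20 (SE; edgeR quasi-likelihood test, adjusted p = 0.284). In glia it was 4.81, 4.86 and 4.84 CPM in controls and 3.99, 4.88 and 5.28 in the knockdown (log2 fold change −0.04 ± 0.16, edgeR adjusted p = 0.906). The target transcript therefore passed the test in neither driver, and in glia its groups overlapped. By qPCR, the study reports a significant reduction of *PIG-A* in larvae when a ubiquitous driver expressed this RNAi line. It adds that the head libraries mix normal and knockdown cells. The yolk protein genes Yp1, Yp2 and Yp3, which are expressed in females, took 4.67 to 16.7% of the counts in each library, although the methods describe males. Their share was 9.58, 6.94 and 9.45% in neuron controls and 16.7, 14.6 and 8.61% in the neuron-specific knockdown, and 4.67, 12.0 and 7.27% in glia controls and 11.0, 15.7 and 10.2% in the glia-specific knockdown, with median log2 fold changes of 0.89 and 0.64 over the 3 genes, of which 0 were called. Their part in the results below was not tested. The male-specific RNAs roX1 and roX2 summed to 1.55 to 7.54 CPM.

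Markers of other tissues varied between libraries in ways that touch these genes. Over 17 muscle markers, the summed level was 5320 to 8051 CPM in 10 libraries, but 24343 CPM in neuron knockdown replicate 3 and 25578 CPM in glia control replicate 3. In each of these 2 libraries 15 of the 17 markers were at their highest of the driver. Of the flight muscle genes on the list, fln and TpnC4 were at or near 0 throughout, with at most 0.23 and 0.63 CPM, and Act88F was at 3.43 and 11.3 CPM in these 2 libraries and 0.17 to 4.59 CPM elsewhere, whereas Mhc, the muscle myosin heavy chain, was at 7133 and 7643 CPM in these 2 libraries and 1443 to 2539 CPM elsewhere. Over 7 fat body markers the sum was 11873 to 12432 CPM in neuron controls and 11666 to 19719 CPM in the neuron-specific knockdown, with replicate 1 the highest. It was 7054 to 15026 CPM in glia controls and 19184 to 25738 CPM in the glia-specific knockdown. The list did not move as 1 in glia: its median log2 fold change was 0.02, apolpp (1.40), FASN1 (0.88) and Desat1 (0.67) were the markers with the large positive values, and Lsd-1 fell by 0.82 on the log2 scale (edgeR adjusted p = 0.0497). The head is a mixture, so fewer cells of a type and less RNA per cell cannot be told apart. The summed level of 10 neuron markers lay between 3256 and 5135 CPM and that of 8 glia markers between 1865 and 3089 CPM, and 0 genes of either list were without counts in a group. The 2 muscle-rich libraries also had the highest neuron marker sums (5135 and 4882 CPM, against at most 4192 CPM elsewhere) and the lowest sums of roX1 and roX2 (1.55 and 2.14 CPM). Neuron knockdown replicate 3 had the lowest sum of 11 photoreceptor markers too, with 36757 CPM against 42954 to 58141 CPM elsewhere, and 7 of the 8 glia markers were at their highest of the driver in it.

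A gene was called when its adjusted p was at most 0.05 over all genes tested and its change was at least 1.5-fold. Of the 34 members, 33 passed the filter on low counts and were tested in every comparison. The remaining member, Pepck1, a phosphoenolpyruvate carboxykinase, had 0 counts in all 12 libraries. Its exons lie entirely (100%) within those of CG45087 on the same strand, so how its reads would have been assigned is unknown. For 5 other members more than 10% of the exon bases are shared with another gene: Gpdh1 (22.1%), UGP (21.4%), Rpi (16.6%), Zw (16.4%) and Treh (12.8%).

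Compared per kilobase of exon, the members spanned a wide range. In the neuron controls Tps1, the trehalose 6-phosphate synthase, had the highest level with 437 ± 8.96 CPM per kb (SD, n = 3), followed by Gapdh2 with 434 ± 3.97, Gapdh1 with 351 ± 10.2 and Ald1 with 351 ± 31.2 CPM per kb. Tps1 and Gapdh2 did not differ beyond their spread, nor did Gapdh1 and Ald1. Glyceraldehyde 3-phosphate dehydrogenase and aldolase act in the middle of glycolysis. At the other end, Pepck2 stood at 0.591 ± 0.234, the carrier Tret1-2 at 1.92 ± 0.484 and the glucose 6-phosphatase G6P at 3.97 ± 0.845 CPM per kb. Both genes that bypass the start and end of glycolysis in gluconeogenesis, G6P and Pepck2, were thus near the bottom, while fbp, the fructose 1,6-bisphosphatase, was at 98.0 ± 11.4 CPM per kb.

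In the neuron-specific knockdown, 30 of the 33 tested members had a positive log2 fold change, but 0 were called by edgeR. Of the genes tested, 0.0801% (8 of 9983) were called higher. At an unadjusted p under 0.05, 22 of 33 members were higher and 1 was lower, against 7.99% and 6.45% of all genes. All 3 knockdown libraries lay above all 3 controls for 25 members, against 10.6% of all genes, and below them for 1 member, against 11.0%. The median log2 fold change was 0.59 over the members and 0.00 over all genes tested. The smallest adjusted p was 0.0925, for the ribose 5-phosphate isomerase Rpi. DESeq2, the tool that the study used, called 12 members higher (Hex-C, Pgi, Tpi, Gapdh1, Pgk, fbp, Pgm1, UGP, AGBE, Pgd, Rpi and Taldo), against 1.26% of all genes. The knockdown libraries were not equally far from the controls. The median over the members of a library's log2 distance from the control mean was 0.54, 0.23 and 0.73 in replicates 1, 2 and 3.

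**Figure D1:**
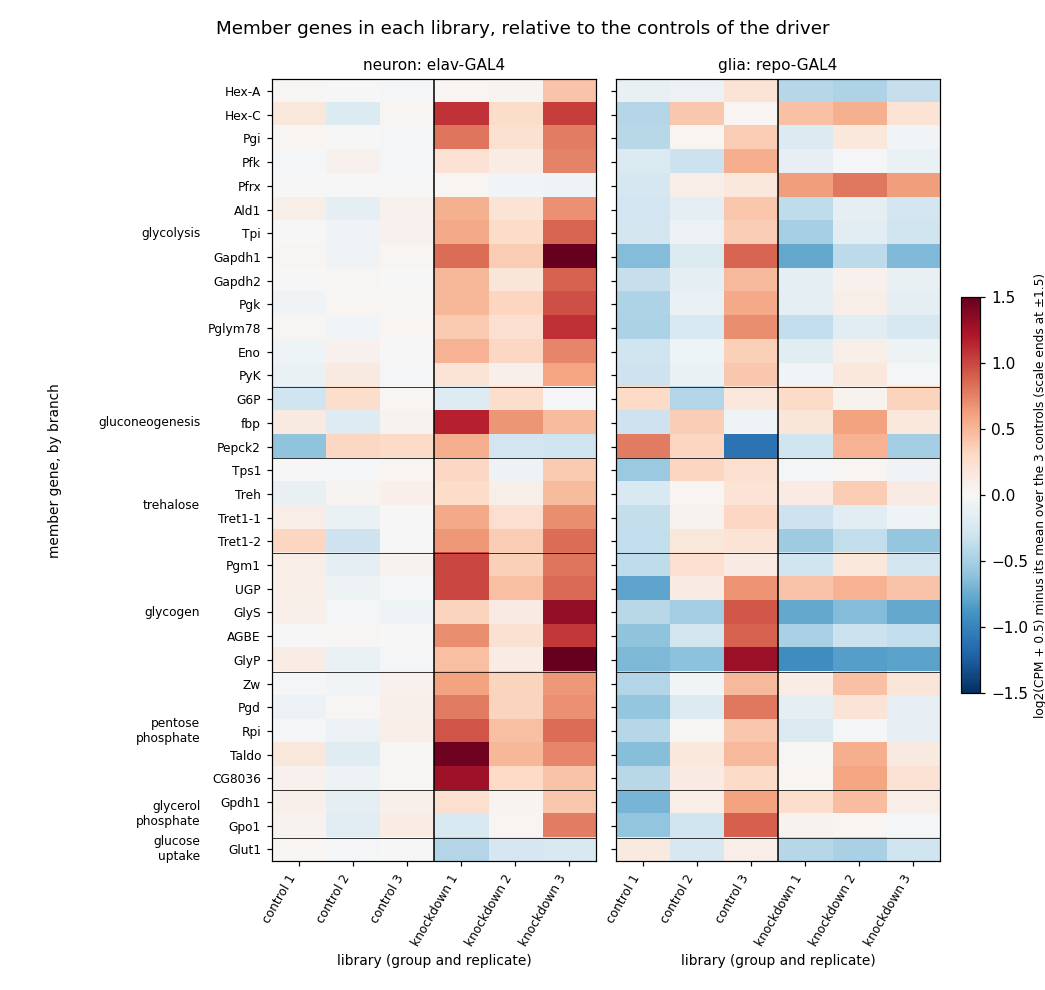
Colour gives log2(CPM + 0.5) of each of the 33 tested members (rows, by branch) in each library (columns), minus its mean over the 3 controls of the same driver, and colours end at 1.5 in either direction. In the left panel knockdown replicates 1 and 3 are darker than replicate 2, and in the right panel control replicate 3 stands apart from the other controls.

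Glycogen metabolism and the pentose phosphate pathway had higher medians than glycolysis, and the other branches lower ones. Median log2 fold changes were 0.55 for glycolysis, 0.74 for glycogen metabolism, 0.74 for the pentose phosphate pathway and 0.40 for trehalose metabolism. They were 0.23 for the glycerol phosphate shuttle and 0.01 for the 3 tested genes of gluconeogenesis. At an unadjusted p under 0.05, 5 of 5 glycogen genes and 5 of 5 pentose phosphate genes were higher, compared with 9 of 13 in glycolysis and 2 of 4 in trehalose metabolism. Of all genes, 7.99% were higher at this level. The difference between branches was not tested, since the members were chosen with results of these data known. Over the 20 tested members outside glycolysis the median was 0.65.

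**Figure D2:**
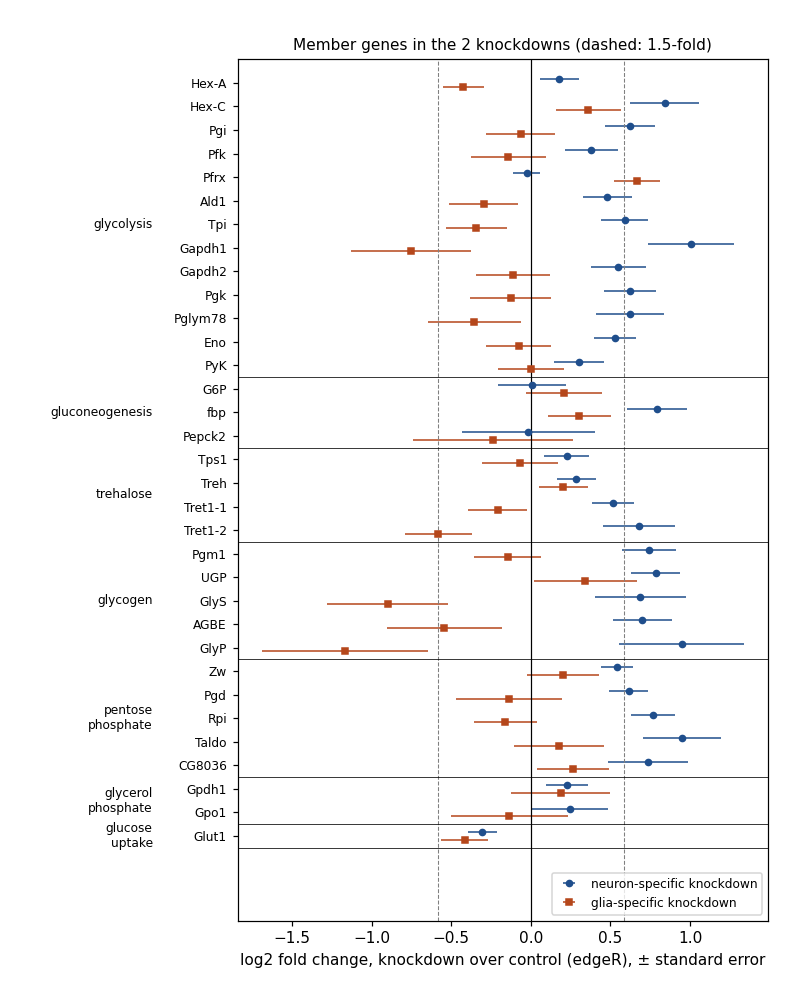
Points are edgeR log2 fold changes of knockdown over control with standard errors for the 33 tested members, circles for the neuron-specific and squares for the glia-specific knockdown (3 against 3 libraries each), and dashed lines mark 1.5-fold. Of the circles, 30 lie above 0, while 22 of the squares lie below 0.

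At the entry to glycolysis, both hexokinases phosphorylate glucose. Hex-A, the broadly expressed form, was at 319, 316 and 312 CPM in neuron controls and 322, 326 and 426 CPM in the knockdown (log2 fold change 0.18 ± 0.12, edgeR adjusted p = 0.552). Hex-C, known from the fat body, was at 103, 79.4 and 93.5 CPM in controls and 195, 111 and 188 CPM in the knockdown (0.84 ± 0.21, edgeR adjusted p = 0.187). Every Hex-C knockdown value exceeded every control, yet replicate 2 did so by little. The ratio of Hex-A to Hex-C, each per kilobase, was 1.12, 1.44 and 1.20 in the controls and 0.597, 1.06 and 0.818 in the knockdown, with no overlap. Pgi, which isomerises glucose 6-phosphate, had a log2 fold change of 0.62 ± 0.16 (edgeR adjusted p = 0.187).

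The next genes act at the committed step. Pfk, the phosphofructokinase, was at 311, 330 and 310 CPM in controls and 368, 342 and 530 CPM in the knockdown (log2 fold change 0.38 ± 0.17, edgeR adjusted p = 0.354). Pfrx makes and removes fructose 2,6-bisphosphate, the activator of Pfk. It was at 389, 387 and 392 CPM in controls and 397, 380 and 372 CPM in the knockdown, and it was the only one of the 13 glycolysis genes with a negative log2 fold change (−0.03 ± 0.08, edgeR adjusted p = 0.918). Its groups overlapped.

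Further down the pathway, Gapdh1 (FBgn0001091, chromosome 2R from 7791901 to 7793380 on the minus strand) had the largest log2 fold change of all members. It was at 528, 503 and 530 CPM in neuron controls and at 926, 677 and 1534 CPM in the knockdown (1.005 ± 0.27, edgeR adjusted p = 0.197). Its close copy Gapdh2 was at 622, 632 and 623 CPM in controls and 887, 712 and 1152 CPM in the knockdown (0.55 ± 0.17, edgeR adjusted p = 0.244). The controls were tight, and the knockdown libraries spread from slightly above them to far above. How reads that match both copies were counted is not stated in the sources used here. Per kilobase, Gapdh1 over Gapdh2 was 0.827, 0.775 and 0.829 in controls and 1.02, 0.927 and 1.30 in the knockdown. Ald1, Tpi, Pgk, Pglym78 and Eno, which carry the carbon on to phosphoenolpyruvate, had log2 fold changes between 0.48 (Ald1) and 0.62 (Pglym78). All 5 had non-overlapping groups with the knockdown higher, as for 10.6% of all genes. The pyruvate kinase PyK ends the pathway, and its groups overlapped (0.30 ± 0.16, edgeR adjusted p = 0.422).

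**Figure D3:**
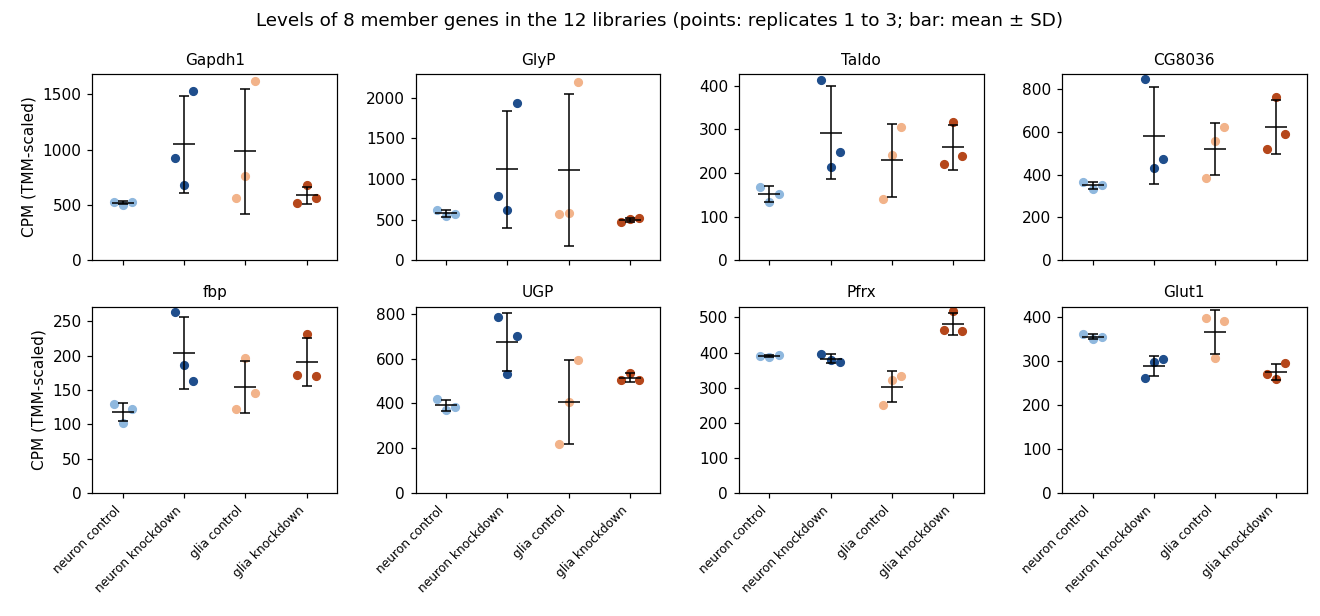
Points are the CPM of replicates 1, 2 and 3 from left to right in each group, and bars give the mean ± SD (n = 3), for 8 members on axes that start at 0. Gapdh1 and GlyP have 1 library far above the rest in the neuron knockdown and in the glia control, whereas Taldo and CG8036 are highest in neuron knockdown replicate 1, and Pfrx separates the glia groups.

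In the glycogen branch, Pgm1 interconverts glucose 6-phosphate and glucose 1-phosphate, and UGP turns the latter into UDP-glucose. UGP (FBgn0035978, chromosome 3L from 9350867 to 9358935 on the minus strand) was at 419, 369 and 385 CPM in neuron controls and 786, 533 and 702 CPM in the knockdown (log2 fold change 0.78 ± 0.15, edgeR adjusted p = 0.107). Pgm1 was at 312, 264 and 302 CPM in controls and 586, 373 and 510 CPM in the knockdown (0.74 ± 0.17, edgeR adjusted p = 0.159). For both genes each knockdown library was above each control. GlyS is the glycogen synthase, AGBE the branching enzyme and GlyP the phosphorylase that releases glucose 1-phosphate. GlyS was at 193, 167 and 381 CPM in the knockdown and GlyP at 787, 623 and 1939 CPM, so replicate 3 carried most of the difference from controls at 146 to 162 and 538 to 622 CPM. AGBE was at 105 to 107 CPM in controls and 172, 123 and 220 CPM in the knockdown.

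For all 5 genes of the pentose phosphate pathway the 3 libraries of the neuron-specific knockdown lay above every neuron control, as for 10.6% of all genes. Zw, glucose 6-phosphate dehydrogenase, which opens the oxidative part, was at 34.3, 34.0 and 36.7 CPM in neuron controls and 53.4, 44.3 and 55.3 CPM in the knockdown (log2 fold change 0.54 ± 0.10, edgeR adjusted p = 0.0953). Pgd, the dehydrogenase of 6-phosphogluconate, was at 67.7, 73.4 and 75.9 CPM in controls and 125, 91.3 and 116 CPM in the knockdown (0.61 ± 0.12, edgeR adjusted p = 0.117). Rpi was at 25.7, 24.3 and 27.9 CPM in controls and 50.4, 35.6 and 46.8 CPM in the knockdown (0.77 ± 0.14, edgeR adjusted p = 0.0925). These 3 had low spread within groups and non-overlapping groups.

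The non-oxidative enzymes link these sugars back to glycolysis. Taldo, the transaldolase (FBgn0023477, chromosome 2R from 23940410 to 23942114 on the plus strand), was at 168, 132 and 152 CPM in neuron controls and 413, 213 and 249 CPM in the knockdown (0.95 ± 0.24, edgeR adjusted p = 0.189). CG8036, a transketolase, was at 365, 332 and 353 CPM in controls and 845, 431 and 471 CPM in the knockdown (0.74 ± 0.25, edgeR adjusted p = 0.266). In both, knockdown replicate 1 was the highest, and this library also had the highest fat body marker sum of its driver (19719 CPM). Replicate 2, whose Taldo and CG8036 values were above every control, had the lowest sum (11666 CPM, against 11873 to 12432 CPM in neuron controls). Over the 7 fat body markers the median log2 fold change was 0.23, and 0 were called. The yolk protein share of the 3 knockdown libraries was 16.7, 14.6 and 8.61%. fbp (FBgn0032820, chromosome 2L from 19761587 to 19764136 on the minus strand) was likewise highest in replicate 1, with 129, 102 and 122 CPM in controls and 263, 187 and 163 CPM in the knockdown (0.79 ± 0.19, edgeR adjusted p = 0.159). The parts of the fat body and of the yolk protein genes in these values were not tested. G6P and Pepck2 overlapped their controls and did not exceed 5.69 and 3.10 CPM in the knockdown.

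Among the trehalose genes, the carrier Tret1-1 was at 380, 329 and 353 CPM in neuron controls and 524, 422 and 571 CPM in the knockdown (log2 fold change 0.51 ± 0.13, edgeR adjusted p = 0.187). Tret1-2, its neighbour on the chromosome, was at 2.48 to 4.11 CPM in controls and 4.30 to 6.11 CPM in the knockdown. Tps1 and the trehalase Treh had smaller values of 0.22 ± 0.14 and 0.28 ± 0.12, and Tps1 overlapped between groups. Gpdh1 and Gpo1, the cytosolic and mitochondrial enzymes of the glycerol phosphate shuttle, overlapped as well (0.23 ± 0.13 and 0.24 ± 0.24). Glut1 went the other way, at 361, 349 and 355 CPM in controls and 262, 298 and 304 CPM in the knockdown (−0.30 ± 0.09, edgeR adjusted p = 0.233), and its groups did not overlap.

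Leaving out the library rich in muscle markers lowered the values of some branches more than others. Without neuron knockdown replicate 3, the median log2 fold change went from 0.55 to 0.38 in glycolysis, from 0.74 to 0.49 in glycogen metabolism and from 0.23 to 0.02 in the glycerol phosphate shuttle. That of the pentose phosphate pathway was 0.73 in place of 0.74. The log2 fold change was 0.29 in place of 0.95 for GlyP, 0.24 in place of 0.69 for GlyS and 0.63 in place of 1.005 for Gapdh1, whereas it was 1.06 for Taldo and 0.87 for CG8036. The members higher by 1.5-fold or more numbered 8 instead of 17, where 4.44% instead of 5.83% of all genes reached it. With this library left out, 1 member was called, as fbp rose by 0.94 (edgeR adjusted p = 0.0363), where 0.730% of all genes were called higher. Without knockdown replicate 2, the library closest to the controls, 11 members were called higher against 1.25% of all genes, with a median of 0.72. Removing the library nearest the controls widens the difference by construction. These 11 calls were the most of any fit with 1 library left out (0 to 11). The part of muscle RNA in the glycolysis and glycogen values was not tested.

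**Figure D4:**
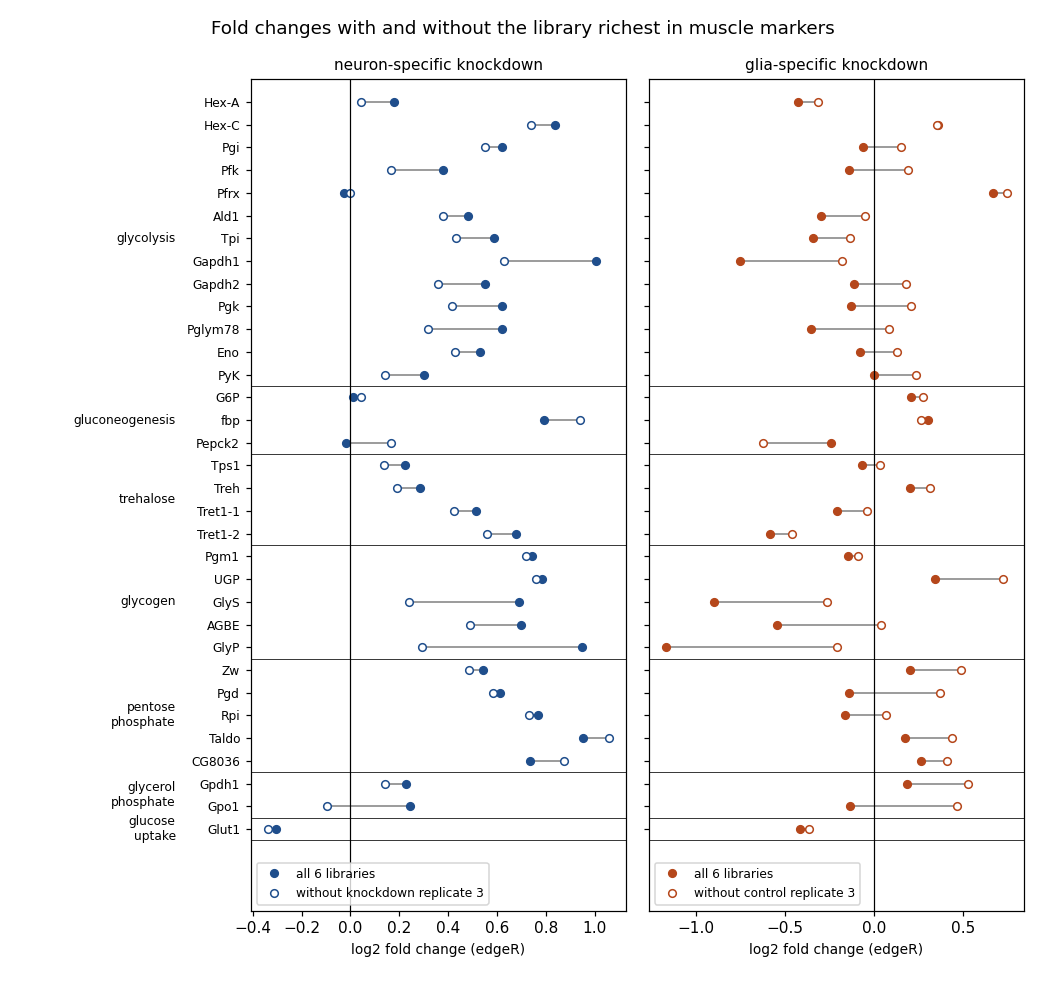
Filled points are edgeR log2 fold changes of the 33 tested members from all 6 libraries of a driver, and open points those without the library richest in muscle markers (neuron knockdown replicate 3 on the left, glia control replicate 3 on the right). GlyP and GlyS shift most among the neuron values, pentose phosphate genes shift little there, and in glia 11 of the 22 negative values become positive.

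In the glia-specific knockdown, 0 of 33 members were called, while 2.67% of all 9951 genes tested were called higher and 0.925% lower. At an unadjusted p under 0.05, 1 member was higher and 4 were lower, against 12.3% and 10.0% of all genes. The knockdown libraries all lay above the controls for 1 member and below them for 5, where 15.9% and 13.6% of all genes did so. The median log2 fold change over the members was −0.13, with −0.02 over all genes. By branch it was −0.13 for glycolysis, −0.54 for glycogen metabolism, −0.14 for trehalose metabolism and 0.18 for the pentose phosphate pathway. DESeq2 called 1 member higher, Pfrx, against 3.30% of all genes.

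Pfrx (FBgn0027621, chromosome X from 19495505 to 19509350 on the plus strand) was the only member with all glia knockdown libraries above all controls. It was at 252, 322 and 334 CPM in glia controls and 463, 518 and 462 CPM in the knockdown, a log2 fold change of 0.67 ± 0.14 (edgeR adjusted p = 0.0525). Its control range lay below the neuron controls, and its knockdown range above them. Without glia control replicate 3 it was called at 0.75 (edgeR adjusted p = 0.0218).

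Among the members with lower glia values, Hex-A was at 336, 340 and 416 CPM in controls and 269, 262 and 285 CPM in the knockdown (log2 fold change −0.42 ± 0.13, edgeR adjusted p = 0.120). Glut1 was at 398, 307 and 390 CPM in controls and 270, 259 and 295 CPM in the knockdown (−0.42 ± 0.15, edgeR adjusted p = 0.157). Both had non-overlapping groups. Tret1-2 was at 3.27, 4.98 and 5.10 CPM in controls and 2.86, 3.27 and 2.77 CPM in the knockdown (−0.58 ± 0.21, edgeR adjusted p = 0.168), where the closest values of the groups were nearly equal.

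In glia, control replicate 3 was above both other controls for 4 of the 5 glycogen genes. Pgm1 was the exception, at 356, 555 and 507 CPM in controls and 377, 521 and 385 CPM in the knockdown. GlyP (FBgn0004507, chromosome 2L from 2130813 to 2137296 on the plus strand) was at 563, 585 and 2193 CPM in glia controls and 471, 507 and 512 CPM in the knockdown (−1.17 ± 0.52, edgeR adjusted p = 0.242). GlyS was at 186, 173 and 476 CPM in controls and 146, 158 and 145 CPM in the knockdown (−0.90 ± 0.38, edgeR adjusted p = 0.223). Groups did not overlap in either gene, but the muscle-rich control replicate 3 stood far above the others. Without it the log2 fold changes were −0.21 for GlyP and −0.26 for GlyS, and the branch median was −0.09. UGP differed from the rest of its branch, with 217, 406 and 594 CPM in controls and 502, 536 and 503 CPM in the knockdown, and went from 0.34 to 0.73 without that control.

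**Figure D5:**
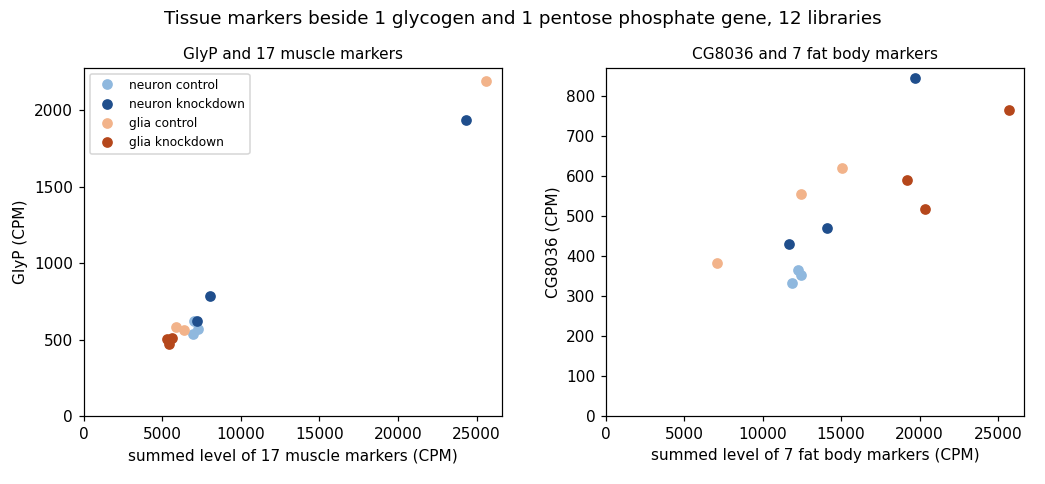
Each point is 1 of the 12 libraries, with GlyP against the summed CPM of 17 muscle markers on the left and CG8036 against that of 7 fat body markers on the right, on linear axes that start at 0. Neuron knockdown replicate 3 and glia control replicate 3 lie alone at the top right of the left panel, and the 3 glia knockdown libraries have the higher fat body sums of their driver, while their CG8036 values overlap the glia controls.

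The sign of 2 glia medians rested on this control, that over all members and that of glycolysis. Without glia control replicate 3 the median over all members was 0.15 instead of −0.13, and that of glycolysis was also 0.15, with 22 of 33 members above 0 instead of 11. The medians of the glycogen, trehalose, pentose phosphate and gluconeogenesis branches kept their signs, but those of glycogen and trehalose shrank. They were −0.09 in place of −0.54 and −0.0013 in place of −0.14, with 2 of 4 trehalose genes above 0. All 5 pentose phosphate genes were then above 0, with a median of 0.41, and Pfrx was the 1 member called. In the same setting 4.06% of all genes were called higher. The pentose phosphate values sit beside fat body marker sums that were higher in every glia knockdown library than in any glia control, although the median log2 fold change of the 7 markers was 0.02, and the part of the fat body in them was not tested.

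Whether the knockdown differed between drivers was tested as an interaction over all 12 libraries. Of 33 members, 31 had a higher log2 fold change in the neuron-specific than in the glia-specific knockdown, with a median difference of 0.61 against 0.02 over all 10257 genes. At an unadjusted p under 0.05, 15 members were higher and 1 lower, where 10.8% and 10.3% of all genes were. Only Pfrx was called, with a difference of −0.70 ± 0.16 (edgeR adjusted p = 0.0371), and 2.39% of all genes were called lower. The largest positive differences were those of GlyP (2.12 ± 0.73, edgeR adjusted p = 0.135) and Gapdh1 (1.76 ± 0.52, edgeR adjusted p = 0.0900), which were 0.50 and 0.80 with both muscle-rich libraries left out, where Tret1-2 had the largest (1.01, edgeR adjusted p = 0.134). DESeq2 called 8 members higher (Ald1, Gapdh1, Hex-A, Pgm1, Tret1-2, Tret1-1, Rpi and Tpi) and Pfrx lower, against 1.81% and 2.84% of all genes. With both muscle-rich libraries left out, the median difference was 0.35 over the members, 0.29 in glycolysis and 0.50 in glycogen metabolism, compared with 0.66 and 1.24 in these branches with all libraries. Pfrx remained called there (−0.75, edgeR adjusted p = 0.0260, with 2.20% of all genes called lower), and with single libraries left out it lost the call for 10 of the 12 (edgeR adjusted p = 0.0514 to 0.0962).

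The controls of the drivers were not alike in these genes. Of 33 members, 30 were lower in the elav-GAL4 than in the repo-GAL4 controls, with a median log2 ratio of −0.44 against −0.01 over all 10028 genes. Groups did not overlap for 15 members that were lower, compared with 13.4% of all genes, and 0 were called by edgeR, where 1.83% of all genes were called lower. At an unadjusted p under 0.05, 10 members were lower, against 10.0% of all genes. DESeq2 called 8 lower, against 2.42% of all genes. Pepck2 had the largest ratio, at 1.13, 2.58 and 2.52 CPM in neuron controls and 14.6, 10.5 and 3.59 CPM in glia controls (−2.21, edgeR adjusted p = 0.0626). Without glia control replicate 3 the median was −0.21 and 2 members were called lower, Pgm1 and Pepck2, against 4.39% of all genes. On the other side, Pfrx was the 1 member with non-overlapping higher values in the neuron controls (0.37), and 13.8% of all genes did so. It was also the 1 member higher at an unadjusted p under 0.05, against 9.60%. Driver, genetic background and any batch cannot be told apart here. The neuron controls also enter the neuron comparison, the glia controls the glia comparison, and both the interaction, so these comparisons are not independent. A lower level in the elav-GAL4 than in the repo-GAL4 controls raises the interaction value by construction.

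Beyond the members, 58 other genes of carbohydrate metabolism were listed, namely further enzymes, sugar carriers, digestive glucosidases and regulators. In the neuron-specific knockdown 43 were tested and 0 were called, where 0.0801% of all genes were called in each direction. At an unadjusted p under 0.05, 17 were higher and 3 lower, against 7.99% and 6.45% of all genes, and the median log2 fold change was 0.23. DESeq2 fitted 55 of the 58 and called 6 higher, against 1.26% of all genes. The largest values belonged to tobi, a glucosidase regulated by insulin signalling, with 7.19, 8.65 and 13.8 CPM in controls and 250, 12.2 and 73.3 CPM in the knockdown (3.51 ± 0.96, edgeR adjusted p = 0.199). Sodh-1, a sorbitol dehydrogenase, was at 30.1, 25.7 and 32.3 CPM in controls and 418, 87.8 and 129 CPM in the knockdown (2.85 ± 0.57, edgeR adjusted p = 0.109). In both genes knockdown replicate 1 was highest and replicate 2 closest to the controls. The amylase gene Amy-p had a log2 fold change of 1.71, although its near-identical copy Amy-d may share reads with it. Ldh, the lactate dehydrogenase that joins pyruvate to lactate, was at 10.2, 9.46 and 8.15 CPM in controls and 20.5, 14.9 and 21.9 CPM in the knockdown, with no overlap (1.03 ± 0.17, edgeR adjusted p = 0.0901, DESeq2 adjusted p = 2.7e-05). On the negative side were Mal-A2 (−0.56), AkhR, the receptor of the adipokinetic hormone (−0.54), and the carriers sut2 and sut3 (both −0.48).

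In the glia-specific knockdown 41 of these genes were tested, and 2 were called, both higher, against 2.67% of all genes. At an unadjusted p under 0.05, 11 were higher and 4 lower, against 12.3% and 10.0% of all genes. The median log2 fold change was 0.07. DESeq2 fitted 55 of the 58 and called 4 higher and 1 lower, where it called 467 and 230 of all 14150 genes. The glycerol kinase Gk1 was at 79.3, 110 and 66.6 CPM in glia controls and rose to 169, 177 and 174 CPM (log2 fold change 1.02 ± 0.17, edgeR adjusted p = 0.0269). Ldh was at 11.8, 10.3 and 12.0 CPM in controls and rose to 19.4, 21.5 and 16.0 CPM (0.73 ± 0.14, edgeR adjusted p = 0.0369). The interaction of Ldh was 0.30 ± 0.22 (edgeR adjusted p = 0.470). The other large values were those of tobi (1.85) and Sodh-1 (1.32), and on the negative side the debranching enzyme CG9485 (−0.87), Amy-d (−0.74) and the glycogenin Gyg (−0.72). CG9485 and Gyg were highest of their driver in the muscle-rich libraries, with 825 and 337 CPM in glia control replicate 3 against 263 and 293, and 152 and 131, in the other controls. Between the controls of the drivers, the carrier sut3 (2.27, edgeR adjusted p = 0.0151) and the transcription factor foxo (0.63, edgeR adjusted p = 0.0261) were called higher under elav-GAL4, as were 2.20% of all genes.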

How the data were processed

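RNA of whole heads was sequenced from TruSeq stranded mRNA libraries, and 12 libraries were grouped by their labels. The deposited counts are whole-number reads per FlyBase gene without normalization, which the authors made after trimming with seqtk, Bowtie2 alignment to BDGP Release 6 and SAMtools sorting; the counting program and its use of strand are not given in the sources used here. The authors also deposited DESeq2 tables of their own comparisons (base mean, fold change, standard error, test statistic and p-values), which were not used. No column of per-sample values was left out.

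Counts were fitted in R 4.3.3 with edgeR 4.0.16 (TMM, filterByExpr, quasi-likelihood F test, two-sided), each driver on its own 6 libraries and the interaction on all 12, with Benjamini-Hochberg adjustment across every gene that was tested. Standard errors of edgeR values were derived from the test, as the absolute log2 fold change divided by the square root of F. Calls needed an adjusted p of at most 0.05 and at least 1.5-fold, the study's thresholds, and DESeq2 1.42.0 was an alternative. Tables were summarised with Python 3.11.15, pandas 2.3.3 and numpy 2.4.6, and drawn with matplotlib 3.10.9. Of the 17737 identifiers, 17598 had a symbol and 17599 an exon length; positions and exon lengths are from Ensembl on the same build. The fits were tested on simulated data, where the share of false calls within a driver was somewhat above the nominal rate, so adjusted p-values near the threshold may be too small. Alternatives were RLE size factors, library totals alone, no filter on low counts, 1 fit of all libraries, the replicate number as a block, and leaving out each library. Members and lists were chosen with earlier results of these data known. The text names all members, the targeted gene, and of the other carbohydrate genes those called and the 3 largest values in each direction per knockdown; coordinates and full values are given where a result turns on a member. Values of single libraries carry counting error only in part, since replicates varied far beyond it. Promoter sequences were not analysed here.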

Additional observations from a re-analysis of the deposited data

Results flagged for a closer look

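The interaction test over all 12 libraries called 3 of these genes, all with a lower log2 fold change under elav-GAL4 than under repo-GAL4. They were 1 of 33 members and 2 of 43 other carbohydrate genes, where 2.39% of all genes were called lower. In each of the 3, every elav-GAL4 control lay above every repo-GAL4 control, as for 13.8% of all genes. The same controls enter the interaction with opposite signs. Picking genes by a negative interaction favours this order, so it adds no support. Between these controls foxo was itself called (0.63, edgeR adjusted p = 0.0261). Pfrx had a difference, neuron-specific minus glia-specific, of −0.70 (edgeR adjusted p = 0.0371), and 3 of 3 glia knockdown libraries were above every control while the neuron groups overlapped. The sugar-responsive transcription factor cbt had a difference of −0.86 ± 0.20 (edgeR adjusted p = 0.0402), with 159, 134 and 178 CPM in neuron controls and 117, 126 and 108 CPM in the neuron-specific knockdown. In glia it was at 88.0, 126 and 117 CPM in controls and 145, 140 and 162 CPM in the knockdown. For foxo, a transcription factor restrained by insulin signalling, the difference was −0.66 ± 0.15 (edgeR adjusted p = 0.0371), with 136, 129 and 136 CPM in neuron controls, 114, 122 and 103 CPM in the neuron-specific knockdown, 77.9, 102 and 80.0 CPM in glia controls and 115, 114 and 120 CPM in the glia-specific knockdown. Both regulators had non-overlapping groups in both drivers, lower in the neuron-specific and higher in the glia-specific knockdown. Of all genes, 11.0% and 15.9% did so in these directions. All 3 genes were picked by their interaction in the same libraries, so the separation of their groups adds no support. The foxo levels of the 2 knockdowns overlapped, whereas those of cbt did not. Neither regulator was called within a driver. With both muscle-rich libraries left out, neither kept its call, at −0.86 for cbt (edgeR adjusted p = 0.0597) and −0.54 for foxo (edgeR adjusted p = 0.0775). Groups of 3 libraries are too small for a test of single outlying libraries.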

How the results depend on the processing

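Counts of members called depended on the tool and on single libraries. For the neuron-specific knockdown the 0 calls became 12 with DESeq2 and ranged from 0 to 11 when 1 library was left out. For glia the 0 calls became 1 with DESeq2 and 1 with 1 fit of all libraries, and ranged from 0 to 1 with a library left out. The 1 call of the interaction became 9 with DESeq2, 2 with library totals alone and 0 without the filter on low counts, and ranged from 0 to 3 with a library left out; Pfrx, the gene called, kept its sign in every setting (−0.77 to −0.58 with a library left out). The 0 calls between controls became 8 with DESeq2, 1 with library totals, 2 without the filter and 3 with 1 fit of all libraries, and ranged from 0 to 2. Leaving out a library moved the glia median from −0.27 to 0.15 in glycolysis and from −0.30 to 0.15 over all members. With the replicate number as a block, 0 members were called in the interaction, in place of 1 (Pfrx at an edgeR adjusted p of 0.0810). The counts within neurons and within glia stayed at 0, and glia Gpo1 changed sign to 0.026. Same-numbered libraries of a driver did not deviate together (correlations −0.15 to 0.14). Groups of 3 libraries are too small for this to exclude that the numbers pair the samples.

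Single members near 0 changed sign. In glia PyK (0.0019) became −0.00253 with DESeq2, −0.00255 with RLE size factors, −0.10 with library totals and −0.000535 without the filter, and neuron G6P became −0.11 with library totals. With 1 library left out, neuron values ranged from −0.14 to 0.18 for G6P, −0.45 to 0.18 for Pepck2, −0.057 to 9.9e-05 for Pfrx and −0.095 to 0.43 for Gpo1. The glia ranges were −0.25 to 0.15 for Pgi, −0.31 to 0.19 for Pfk, −0.27 to 0.18 for Gapdh2, −0.34 to 0.21 for Pgk, −0.57 to 0.085 for Pglym78, −0.22 to 0.13 for Eno, −0.14 to 0.24 for PyK, −0.0036 to 0.37 for G6P, −0.64 to 0.21 for Pepck2, −0.30 to 0.079 for Tps1, −0.81 to 0.043 for AGBE, −0.40 to 0.37 for Pgd, −0.35 to 0.069 for Rpi, −0.085 to 0.44 for Taldo, −0.091 to 0.53 for Gpdh1 and −0.40 to 0.47 for Gpo1. The cause of these shifts was not tested. The fits without both muscle-rich libraries were chosen after seeing the data.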
